A study of Arabidopsis thaliana with 12 samples.

Results

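The 2 indazoles of the series that carry a nitro group at position 7 were set against the treatments that carry none, over whole wild-type Arabidopsis thaliana seedlings of the accession Col-0. The nitro compounds were 7-nitroindazole (7NIT) and 3-bromo-7-nitroindazole (3B7N), with 3 arrays each. The treatments without nitro were 3-bromoindazole (3BRO) and the solvent dimethyl sulfoxide (DMSO), also with 3 arrays each. The title code of each array placed it, so 6 of the 12 arrays of the series were nitro arrays and 6 were not. Chemicals were at 2.5 µM in agar medium, and every treatment shared 3 days of cold in darkness and then 4 days of continuous blue light at 10 µmol m-2 s-1. Each value is a 1-colour Agilent signal, written as log2 of the processed signal minus its array's 75th percentile, so a value of 0 is the 75th percentile itself.

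Nitro and bromo were crossed as 2 factors, and the nitro main effect is the mean of 2 matched differences. The first is 7NIT minus DMSO, without bromo, and the second is 3B7N minus 3BRO, with bromo on both sides. These 2 pairs share no array. They are not equal as chemistry: 3B7N and 3BRO differ by the nitro group alone, whereas 7NIT differs from DMSO by the whole nitroindazole, since no unsubstituted indazole was among the treatments analysed here. A gene passed the threshold when limma's Benjamini-Hochberg adjusted p over all genes was under 0.05, and the p-values of the 2 pairs were adjusted together. The labels do not say whether a treatment's arrays come from separate cultures, so these p-values measure the spread between arrays, which may be technical. The slide block, used below, is the same fit with slide added as a fixed term.

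The slides have to be read before any gene. Slide 1 held the 3 DMSO arrays and 3BRO replicate 1, and slide 3 held the 3 7NIT arrays and 3B7N replicate 3. Slide 2 held 2 arrays of 3BRO and 2 of 3B7N and is the only slide with both kinds. The 4 arrays of slide 1 were scanned on another day than the other 8. 7NIT and DMSO therefore never met on a slide, and for that pair compound and slide cannot be told apart except through the single arrays of 3BRO on slide 1 and of 3B7N on slide 3. The difference of 3B7N and 3BRO within slide 2 is given beside the results as a comparison free of slide. Under the slide block that same difference is the whole of 3B7N minus 3BRO. 7NIT minus DMSO is then reached through it and through 3BRO replicate 1 and 3B7N replicate 3. The 2 pairs therefore share arrays under the block, and a blocked main effect and its slide 2 difference are not separate checks. Arrays of a treatment correlated at 0.979 to 0.993 over genes, and arrays of different treatments at 0.957 to 0.993. Nitro arrays were also brighter: the 75th percentile ran from 1768 to 2920 signal units without nitro and from 2770 to 3761 with it. The mean difference was 1084 (two-sided exact permutation test, p = 0.0043, n = 6 against 6). That test takes no account of slide or scan day, and nitro and slide cannot be told apart in it. The subtraction makes the 75th percentiles equal, but not the rest of each array's distribution. Whether the brightness bears on the values of dim probes was not tested. In whole seedlings, fewer cells of a type and less RNA per cell cannot be told apart.

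Nitroindazoles are small bicyclic aromatic molecules, and 7-nitroindazole is known from animals as an inhibitor of nitric oxide synthase. Several of the genes that moved the same way with both nitro compounds belong to copper status. In Arabidopsis, when copper is short, the transcription factor SPL7 raises copper uptake genes, the iron superoxide dismutase FSD1 and microRNAs, among them miR408 and miR398. These microRNAs lower transcripts of copper proteins that the plant can spare, such as the copper/zinc superoxide dismutases CSD1 and CSD2 and their chaperone CCS. With copper in plenty the uptake genes and FSD1 are low and the copper/zinc enzymes are high. This is textbook background; no metal was measured in the data used here.

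With both nitro compounds a part of the genes that copper shortage raises had less transcript. FSD1, FRO4, FRO5, ZIP2, YSL2, CCH and MIR408 were lower with 7NIT than with DMSO and lower with 3B7N than with 3BRO, past the threshold in each pair, where 0.187% of genes passed lower with 7NIT and 3.07% with 3B7N. CCS, CSD1 and CSD2, on the other side of the copper balance, rose in the nitro main effect by 0.48 to 0.73 on the log2 scale. Over the whole list of copper-status genes, 20 were measured and 11 passed in the nitro main effect, 7 lower and 4 higher, where 1.68% of all 23543 genes passed (1.03% lower and 0.65% higher). This list and the others below were chosen with earlier results of these data known, so such shares are a description and not a test. The list moved both ways, so its median of -0.09 hardly differs from the 0.01 of all genes. The entries CITF1 and ATX1 were not matched to a gene by name, so the counts of the copper list leave them out. FSD1, FRO4, FRO5, ZIP2, YSL2, CCH, MIR408, AT1G71200, DR4, CSD1 and GSTU11 were picked partly for nitro arrays that overlap no others. Their lack of overlap below is fixed by that choice, and 0.693% of all genes had it with no test.

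FSD1, the iron superoxide dismutase of plastids, is read by 2 probes. Its log2 levels were 4.48, 4.28 and 4.69 with DMSO, 4.54, 4.12 and 4.08 with 3BRO, 2.17, 2.25 and 2.27 with 7NIT and 0.34, 0.56 and -0.14 with 3B7N. The 6 nitro arrays lie wholly below the 6 others, 7NIT is in the middle and 3B7N lowest, and no groups overlap except DMSO with 3BRO. The difference was -2.26 (SE 0.20; adjusted p = 0.00056, limma) for 7NIT minus DMSO, a 4.78-fold fall, and -4.0 (SE 0.20; adjusted p = 2.8e-05) for 3B7N minus 3BRO, a 15.9-fold fall. The fall was larger with bromo on both sides, with an interaction of -1.74 (95% interval -2.35 to -1.13; adjusted p = 0.025). Within slide 2 the difference was -3.65. Under the slide block, which contains that difference, the main effect was -2.44 (adjusted p = 0.014) against -3.13 without the block. For FSD1, 7NIT minus DMSO taken alone did not pass under that block. Both probes of FSD1 moved the same way.

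The ferric and cupric reductases FRO4 and FRO5, which reduce copper at the root surface before uptake, are neighbours in the RefSeq table. FRO4 levels were -4.67, -3.51 and -3.14 with DMSO, -5.78, -3.63 and -4.15 with 3BRO, -7.66, -7.27 and -7.07 with 7NIT and -10.05, -8.48 and -7.53 with 3B7N. All nitro arrays were below all others, and the probe was well above background on all arrays but 1 of 3B7N, with 3B7N replicate 1 lowest at -10.05. FRO4 fell in both pairs, with differences of -3.56 (SE 0.68, adjusted p = 0.023) without bromo and -4.16 (adjusted p = 0.012) with it. This gene also moved with slide inside a treatment: 3BRO was -1.89 in log2, that is lower, on slide 1 than on slide 2 and 3B7N was 1.73 higher on slide 3 than on slide 2. The main effect of -3.86 became -6.28 (adjusted p = 0.028) under the slide block, a larger fall, and -5.37 was the difference within slide 2.

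FRO5 levels were -7.96, -7.30 and -7.35 with DMSO, -9.60, -8.24 and -8.66 with 3BRO, -10.46, -11.17 and -10.67 with 7NIT and -10.35, -10.50 and -11.13 with 3B7N. Its probe was well above background on 3 DMSO arrays and 1 3BRO array and on no nitro array, so its size is a bound: at least 1.97-fold lower with 7NIT than with DMSO and at least 1.02-fold lower with 3B7N than with 3BRO, by the signal of the dimmest probes that cleared background. The fit gave -3.23 (adjusted p = 0.0019) and -1.82 (adjusted p = 0.024). The background filter kept this probe through the DMSO arrays alone, where it was high, so the fit is not independent of the filter. FRO4 and FRO5 are close relatives, and whether their probes bind each other's transcript was not tested. After normexp background correction the main effect was -1.38 for FRO4 (adjusted p = 0.24) and -0.13 for FRO5 (adjusted p = 1), neither past the threshold.

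**Figure D1:**
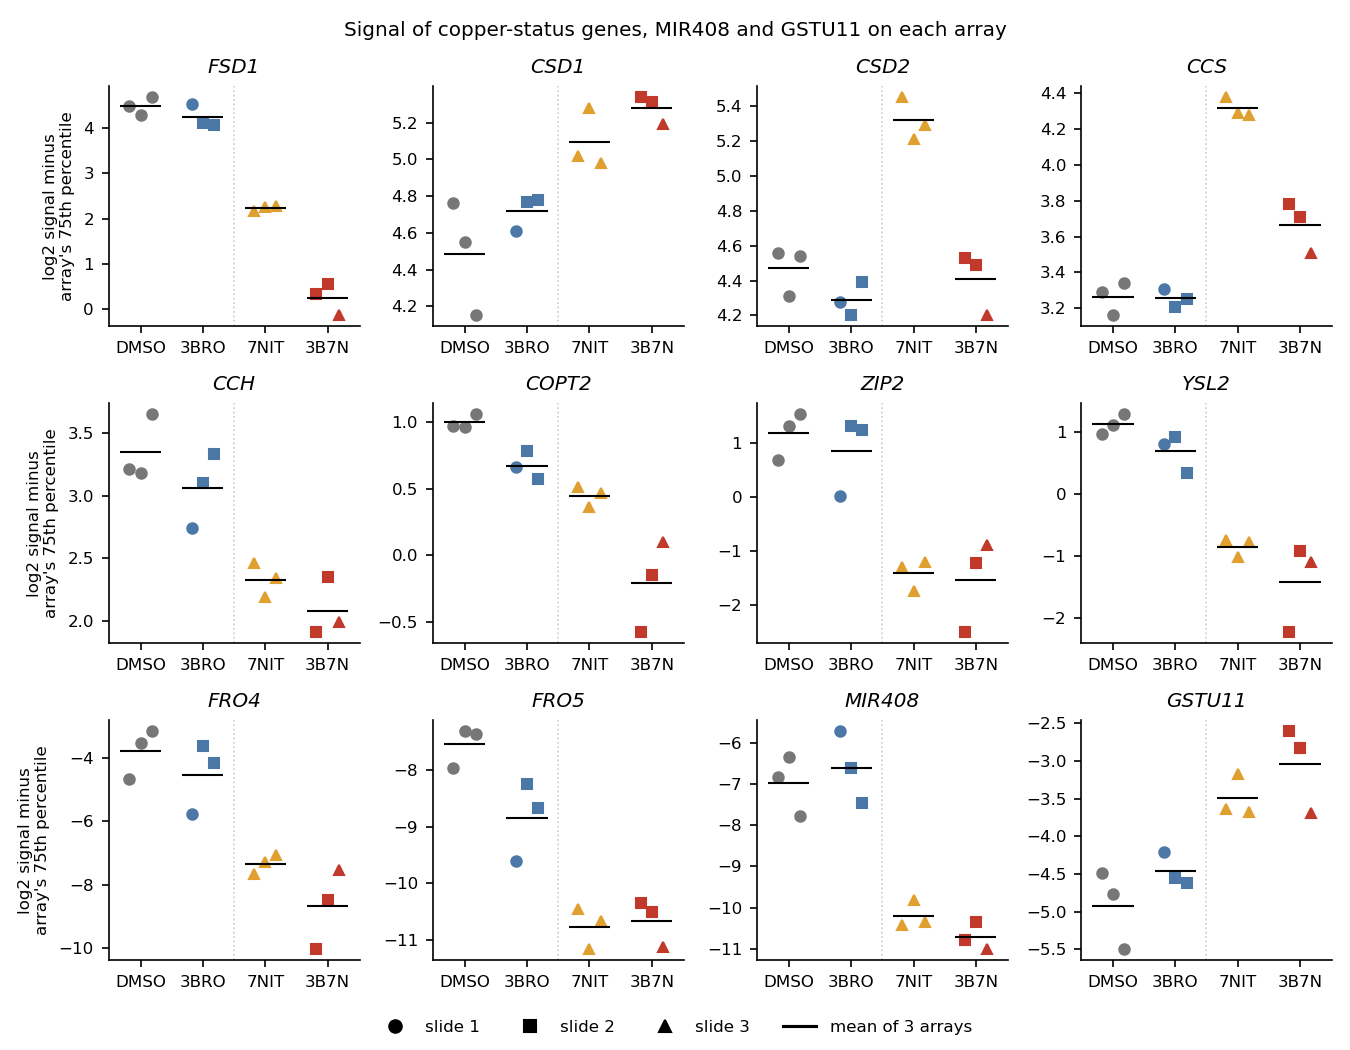
Log2 signal minus the array's 75th percentile (y axis) for 12 genes on each of the 12 arrays, by treatment (x axis), with the slide as the symbol and the mean of 3 arrays as a line. FSD1 is between 4.08 and 4.69 without nitro and between -0.14 and 2.27 with it; CCS and CSD2 are highest with 7NIT.

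ZIP2 is a metal transporter of the ZIP family that copper shortage raises. Its levels were 0.68, 1.31 and 1.53 with DMSO, 0.01, 1.31 and 1.24 with 3BRO, -1.30, -1.74 and -1.21 with 7NIT and -2.51, -1.23 and -0.90 with 3B7N. The 3BRO array on slide 1 was the lowest of the arrays without nitro, at 0.01, and still above every nitro array. The differences were -2.59 without bromo (SE 0.45, adjusted p = 0.015) and -2.40 with it (adjusted p = 0.021). The interaction was 0.19 with a 95% interval of -1.20 to 1.58, which is wide on both sides of 0. Under the slide block the main effect of -2.50 was -3.98 (adjusted p = 0.034), and within slide 2 the difference was -3.14.

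YSL2, a transporter of metal-nicotianamine complexes, had levels of 0.96, 1.11 and 1.29 with DMSO, 0.80, 0.92 and 0.34 with 3BRO, -0.74, -1.02 and -0.78 with 7NIT and -2.23, -0.92 and -1.09 with 3B7N. Nitro and other arrays did not overlap. It differed by -1.97 with 7NIT (adjusted p = 0.0093) and -2.10 with 3B7N (adjusted p = 0.0072), and the interaction was -0.13 (95% interval -1.07 to 0.80). The main effect was -2.03 and under the slide block -2.25, which no longer passed (adjusted p = 0.07). CCH, a copper chaperone, had levels of 3.21, 3.18 and 3.65 with DMSO, 2.74, 3.1 and 3.33 with 3BRO, 2.46, 2.19 and 2.34 with 7NIT and 1.91, 2.35 and 1.99 with 3B7N. These groups did not overlap either, though 3BRO replicate 1 at 2.74 was nearest to the nitro arrays. CCH differed by -1.01 (adjusted p = 0.024) and -0.97 (adjusted p = 0.028) in the 2 pairs (interaction 0.04, 95% interval -0.56 to 0.64), and lost its call under the slide block at -1.22 (adjusted p = 0.084).

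MIR408 is the locus of the microRNA miR408, and the array reads its longer transcript, not the mature microRNA. Its levels were -6.83, -6.34 and -7.77 with DMSO, -5.71, -6.62 and -7.47 with 3BRO, -10.42, -9.82 and -10.36 with 7NIT and -10.79, -10.35 and -11.02 with 3B7N. The gap between the lowest array without nitro and the highest nitro array was wide, and the probe was well above background on 2 DMSO and 3 3BRO arrays and on no nitro array. The background filter kept the probe through the 3BRO arrays alone, on the high side, so its tests are not independent of the filter. Over all 12 arrays it was at least 3.73-fold lower with nitro, and at least 2.9-fold and 4.8-fold lower in the pair without and the pair with bromo. The fitted differences were -3.22 (adjusted p = 0.0066) and -4.12 (adjusted p = 0.0019). The main effect of -3.67 was -2.48 under the slide block (adjusted p = 0.089), -3.53 within slide 2, and -0.44 after normexp (adjusted p = 0.9).

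AT2G47010, the neighbour of MIR408 in the RefSeq table, fell too, at -0.73 without bromo (adjusted p = 0.039) and -0.96 with it (adjusted p = 0.012). Its levels were -1.35, -1.25 and -1.44 with DMSO, -1.44, -1.56 and -1.84 with 3BRO, -2.16, -2.28 and -1.79 with 7NIT and -2.58, -2.70 and -2.45 with 3B7N. The 3B7N arrays were lowest, and 7NIT replicate 3 overlapped 3BRO replicate 3. Its main effect was -0.85, and -0.80 with the slide block, where it did not pass (adjusted p = 0.17). Whether the 2 neighbours share a transcript was not tested. Transcripts known as miR408 targets did not pass in the nitro main effect: the plantacyanin ARPN was at -0.11 (95% interval -0.42 to 0.21), the laccase LAC3 at 0.09 (-0.28 to 0.45) and LAC12 at -0.08 (-0.76 to 0.61).

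On the copper-enzyme side, CCS, the chaperone that loads copper into superoxide dismutase, had levels of 3.29, 3.16 and 3.34 with DMSO, 3.31, 3.21 and 3.25 with 3BRO, 4.38, 4.29 and 4.28 with 7NIT and 3.78, 3.71 and 3.51 with 3B7N. All nitro arrays were higher, with 7NIT above 3B7N. CCS rose by 1.05 with 7NIT (SE 0.11; adjusted p = 0.0019), while 3B7N minus 3BRO was 0.41 (adjusted p = 0.097). The interaction of -0.64 did not pass (adjusted p = 0.091; 95% interval -1.0 to -0.29). The main effect was 0.73, and under the slide block 0.94 (adjusted p = 0.047). The plastid enzyme CSD2 had levels of 4.56, 4.31 and 4.54 with DMSO, 4.28, 4.20 and 4.39 with 3BRO, 5.45, 5.21 and 5.29 with 7NIT and 4.53, 4.49 and 4.20 with 3B7N. It was high with 7NIT alone, and 3B7N overlapped both treatments without nitro. CSD2 rose by 0.85 with 7NIT (adjusted p = 0.011), against 0.12 for 3B7N minus 3BRO (adjusted p = 0.74), and the test of that difference gave -0.73 (adjusted p = 0.1).

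The cytosolic enzyme CSD1 had levels of 4.76, 4.55 and 4.15 with DMSO, 4.61, 4.77 and 4.78 with 3BRO, 5.02, 5.28 and 4.98 with 7NIT and 5.34, 5.31 and 5.19 with 3B7N. The lowest nitro array, at 4.98, was above the highest of the others, at 4.78. It rose in the main effect by 0.58 (SE 0.11, adjusted p = 0.037), with 0.60 and 0.56 in the 2 pairs, neither past the threshold by itself. Under the slide block CSD1 was at 0.57 and CSD2 at 0.68, against 0.58 and 0.48 without it, and neither passed (adjusted p = 0.36 and 0.16). When single arrays were left out, the call was lost in 8 of 12 fits for CSD1 and in 10 of 12 for CSD2. FSD2, another iron superoxide dismutase of plastids, was at -0.02 (95% interval -0.30 to 0.25).

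Of the copper transporters, COPT2 in the plasma membrane had levels of 0.97, 0.96 and 1.06 with DMSO, 0.66, 0.78 and 0.57 with 3BRO, 0.51, 0.36 and 0.47 with 7NIT and -0.58, -0.15 and 0.10 with 3B7N. The nitro arrays were all lower and 3B7N lowest. COPT2 was in the main effect at -0.71 (adjusted p = 0.017) and passed with bromo (-0.88, adjusted p = 0.02), not without (-0.55, adjusted p = 0.11). Its main-effect call was lost without 3BRO replicate 2 or 7NIT replicate 2. Under the slide block the difference was larger, at -1.03, and did not pass (adjusted p = 0.069). COPT1 was at -0.30 (95% interval -0.57 to -0.04) and COPT5 of the vacuole at -0.05 (-0.27 to 0.17), neither past the threshold. SPL7 was itself at -0.10 (95% interval -0.40 to 0.19), so a change of its own transcript was not detected within these bounds. The copper-pumping ATPase HMA5 was at 0.23 (adjusted p = 0.28). The laccase LAC2 rose by 0.90 (adjusted p = 0.0038), mostly with 3B7N, at 1.41 against 0.39, and the laccase IRX12 was at 0.03 (adjusted p = 0.95).

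**Figure D2:**
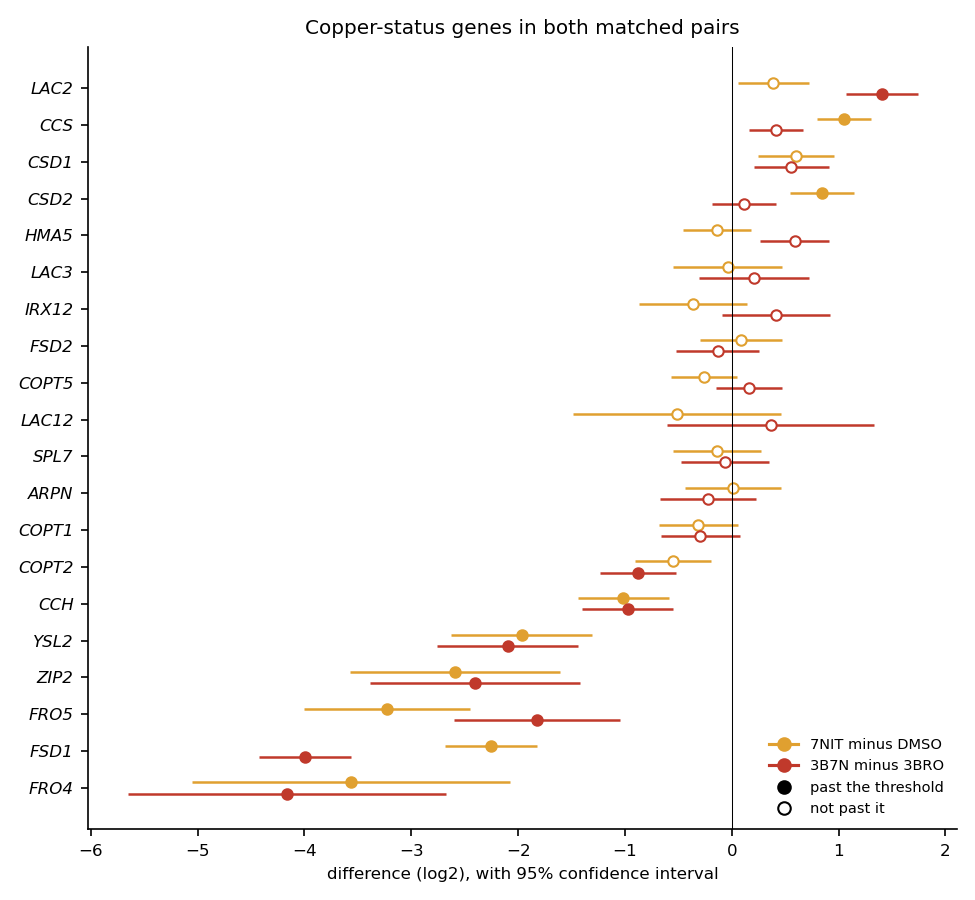
Log2 difference with its 95% confidence interval (x axis) for the 20 measured copper-status genes (y axis), for 7NIT minus DMSO and for 3B7N minus 3BRO; filled points passed the threshold. FRO4, FSD1, FRO5, ZIP2, YSL2 and CCH are below 0 and filled in both pairs, while CCS and CSD2 are filled for 7NIT alone.

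Across the 2 pairs, 15 genes passed in both in the same direction, 1 higher and 14 lower (0.0637% of 23543, or 0.00425% and 0.0595%). With each array left out in turn the count was 5 to 14, lowest without 3BRO replicate 2, 3BRO replicate 3 or 7NIT replicate 2, and FSD1, YSL2 and MIR408 were in it in all 12 fits. They are 15.3% of the 98 genes called without bromo and 1.33% of the 1130 called with it, and 6 of the 14 lower ones are on the copper list, FRO4, FRO5, FSD1, ZIP2, YSL2 and CCH. With p-values adjusted within each pair in place of together, FRO5 and FSD1 were left and 7NIT minus DMSO held 6 calls, so most of the calls without bromo rest on the joint adjustment. Under the slide block, where the 2 pairs share arrays, 114 genes passed in both pairs. Of the 15, FRO4, FRO5 and ZIP2 were among them. After normexp FSD1, YSL2 and ZIP2 passed in both pairs.

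The other genes that passed in both pairs are not among the matched entries of the copper list. An entry left unmatched, such as CITF1, could be among them under a locus name alone, and this was not checked. AT1G71200, to which the RefSeq table gives no gene name, had levels of -6.55, -5.62 and -5.37 with DMSO, -6.13, -6.45 and -7.06 with 3BRO, -8.72, -8.75 and -9.07 with 7NIT and -10.22, -8.82 and -7.85 with 3B7N. Nitro and other arrays did not overlap, but the probe was well above background on 1 array of each nitro compound. Its differences were -3.0 (adjusted p = 0.015) and -2.42 (adjusted p = 0.036), and the main effect was -3.41 under the slide block (adjusted p = 0.048). CLE9, a small signalling peptide gene, was at -0.94 (adjusted p = 0.011) and -0.65 (adjusted p = 0.049), and at -1.14 in the main effect under the slide block (adjusted p = 0.049). DR4, named for its repression in drought, had levels from -0.21 to 0.71 (median 0.30) on the 6 arrays without nitro and from -1.42 to -0.34 (median -0.99) on the 6 nitro arrays. Its arrays did not overlap, which its choice fixed, and its differences were -1.15 and -1.34, but under the slide block the main effect was -0.70 (adjusted p = 0.38).

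AT1G64590 was at -0.92 and -1.13, AT3G12955 at -0.67 and -0.80, and MLP34, of the major latex protein family, at -0.61 and -0.65 in the pair without and the pair with bromo. All of these passed in both pairs, with adjusted p-values from 0.011 to 0.048, and under the slide block their main effects were larger, at -1.25, -1.01 and -0.87, but did not pass (adjusted p = 0.067, 0.081 and 0.071), against -1.03, -0.73 and -0.63 without it. GSTU11, a glutathione transferase of the tau class, which couples glutathione to foreign compounds, was the one gene higher in both pairs. Its levels were -4.49, -4.77 and -5.50 with DMSO, -4.21, -4.55 and -4.62 with 3BRO, -3.63, -3.17 and -3.68 with 7NIT and -2.60, -2.83 and -3.69 with 3B7N. The nitro arrays were all higher, and 3B7N replicate 3 on slide 3 was level with the 7NIT arrays of the same slide. It lost its main-effect call without 7NIT replicate 2 and in none of the other 11 fits that left out an array. GSTU11 rose by 1.43 (adjusted p = 0.042) and 1.42 (adjusted p = 0.043), with an interaction of -0.01 (95% interval -0.99 to 0.98). Under the slide block it was at 2.32 (adjusted p = 0.042).

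**Figure D3:**
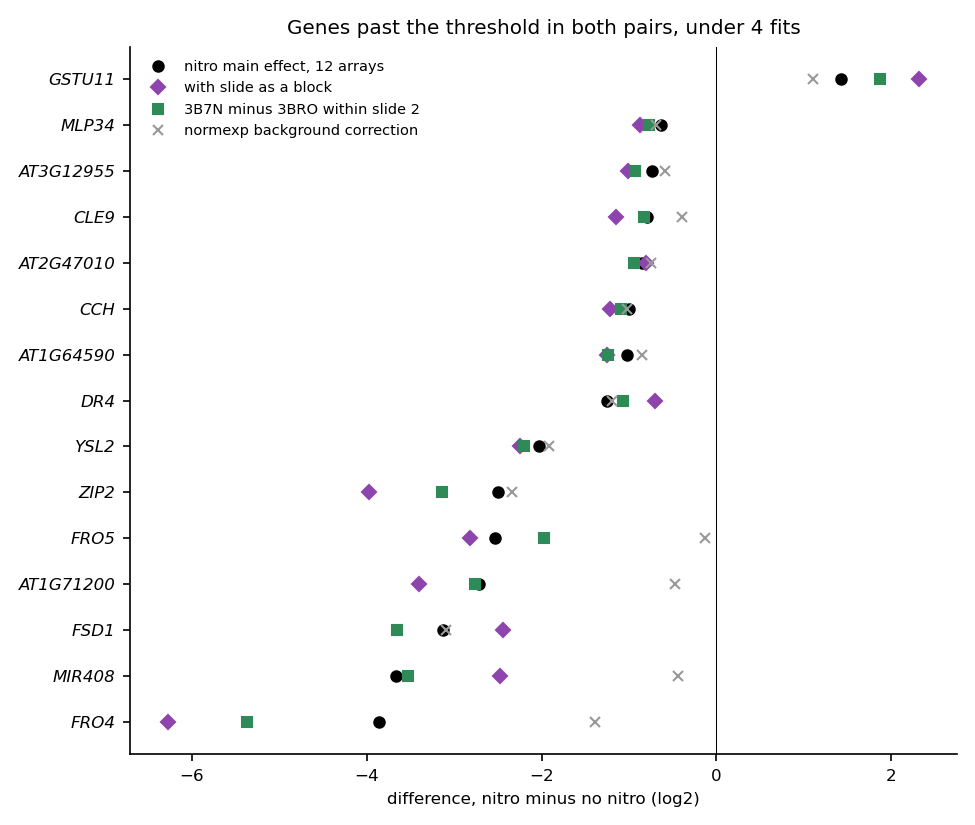
Log2 difference, nitro minus no nitro (x axis), for the 15 genes past the threshold in both pairs (y axis), as the main effect over 12 arrays, under the slide block, within slide 2 as 3B7N minus 3BRO, and as the main effect after normexp. FRO5, MIR408 and AT1G71200, which are dim, are close to 0 after normexp, at -0.13, -0.44 and -0.47, while FSD1 is at -3.09.

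A wider set was taken by asking for a main-effect call, the same sign in both pairs and no overlap between the 6 nitro arrays and the 6 others. It held 56 genes, 19 higher and 37 lower (0.238%, or 0.0807% and 0.157%), where 0.693% of genes had arrays that did not overlap, with no test. The count was 27 without 7NIT replicate 2 and 191 without 3BRO replicate 1. The choice also fixes the genes' direction within slide 2, the only slide with both kinds of array. Among the lower ones, AIR1, an auxin-induced gene of root cultures, ran from -3.59 to -1.99 (median -2.91) on the 6 arrays without nitro and from -4.49 to -4.26 (median -4.32) on the 6 nitro arrays. XTH2, a xyloglucan-remodelling enzyme of the wall, ran from -6.38 to -5.78 (median -6.10) on the 6 arrays without nitro and from -7.96 to -6.88 (median -7.23) on the 6 nitro arrays. AIR1 fell by 1.46 (adjusted p = 0.0053) and XTH2 by 1.18 (adjusted p = 0.016) on the log2 scale; under the slide block they were at -1.08 and -1.89 (adjusted p = 0.23 and 0.05). Several copper uptake genes are known from roots. The 22 measured root and root hair markers had no member past the threshold and a median of -0.24, and their summed linear signal, relative to the 75th percentile, was 117 to 151 without nitro and 91.6 to 118 with it; their part in the result was not tested. Leaf markers summed to 500.0 to 837 without nitro and 372 to 614 with it, epidermis and guard cell markers to 40.2 to 57.7 and 37.3 to 74.8, and seed reserve markers to 29.0 to 37.6 and 22 to 52.7, with no member of the 10, 11 and 17 past the threshold. Each measured marker was well above background on at least 1 array, which the filter on probes ensures for every measured gene.

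Among the higher genes of the wider set, UGT74E2, a glucosyltransferase acting on an auxin precursor, ran from 0.81 to 1.34 (median 1.19) on the 6 arrays without nitro and from 1.59 to 2.57 (median 1.93) on the 6 nitro arrays. ZIFL1, a transporter related to zinc-induced facilitators, ran from -0.76 to -0.20 (median -0.33) on the 6 arrays without nitro and from -0.11 to 0.86 (median 0.14) on the 6 nitro arrays. Arrays did not overlap for either, by the choice of the set, and both rose past the threshold in the main effect, by 0.82 (adjusted p = 0.013) and 0.65 (adjusted p = 0.023). SWEET8, a sugar transporter, was at 1.85 with 7NIT and 0.54 with 3B7N over its control, with a DMSO level not well above background (at least 2.1-fold higher with 7NIT); its 2 probes pointed in different directions. AT1G15190, AT2G20110 and AT2G37000 were 0.77, 0.48 and 0.71 higher in the main effect. AT4G17990, AT5G02210, AT4G04650 and AT1G35435 were 1.57, 1.36, 1.16 and 0.93 higher by the fit, from probes that no DMSO array measured well above background. For AT4G17990 and AT5G02210 that holds on 3BRO arrays too, and the bounds were at least 1.13-fold and 1.57-fold higher. The probes of AT4G17990, AT5G02210, AT4G04650 and AT1G35435 were kept through nitro treatments alone, where they were high. Of the 12 named genes that were higher in this set, CSD1 and GSTU11 included, GSTU11 and AT5G02210 kept their calls under the slide block, where AT5G02210 was at 1.90 (adjusted p = 0.04). Among the other 10, UGT74E2, ZIFL1, AT1G15190 and AT4G17990 were larger there, at 0.90, 0.87, 0.95 and 1.92, and CSD1 changed little. AT4G04650, SWEET8 and AT2G20110 were at 0.93, 0.81 and 0.34, and AT1G35435 and AT2G37000 were smaller, at 0.32 and 0.28. Leaving out 1 array at a time, AT2G37000 passed in 1 of 12 fits, AT4G17990 in 2, AT1G15190 in 6, and ZIFL1 and AT2G20110 in 7.

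Over all genes, the nitro main effect held 396 calls, 153 higher and 243 lower. Quantile normalization in place of the 75th percentile turned the split to 239 higher and 175 lower, so the balance of rises and falls depends on the scaling. The main effect was mostly that of 3B7N: 339 of the 396 passed in 3B7N minus 3BRO and 41 in 7NIT minus DMSO, 353 had the larger absolute difference with bromo, and the median absolute difference was 0.28 without bromo and 1.25 with it. The 2 pairs differed in size, with 98 calls without bromo (54 higher and 44 lower, 0.416% of genes, or 0.229% and 0.187%; 127 and 29 after quantile normalization) and 1130 with it (408 higher and 722 lower, 4.8%, or 1.73% and 3.07%). 7NIT minus DMSO held 334 calls under the slide block, 24 higher and 310 lower, of which 8 were among the 98. Of the 396, 275 also passed in the bromo main effect, which held 2484 calls, 668 higher and 1816 lower (10.6%, or 2.84% and 7.71%). The 396 became 94 without 7NIT replicate 2 and 643 without 3BRO replicate 1, and leaving out any DMSO, 3BRO or 7NIT array moved the count by over 1.5 times. Under the slide block the main effect held 295 calls, 21 higher and 274 lower, and 40 of them were among the 396. Within slide 2 alone 1 gene passed, with 2 arrays against 2. That gene is DIN11, named below by its interaction.

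The directions of the 2 pairs, which share no array, were set against each other. Over all genes 50.7% had the same direction in both, and 56.3% when 3B7N minus 3BRO was taken within slide 2. Of the 44 genes called lower with 7NIT, 31 were also lower with 3B7N over 3BRO and 32 within slide 2 (70.5% and 72.7%). Of the 54 called higher, 33 and 28 were higher (61.1% and 51.9%). Of the 1130 genes called with bromo, 623 had the same direction without it (55.1%). Genes are not independent of each other, so these shares are a description.

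**Figure D4:**
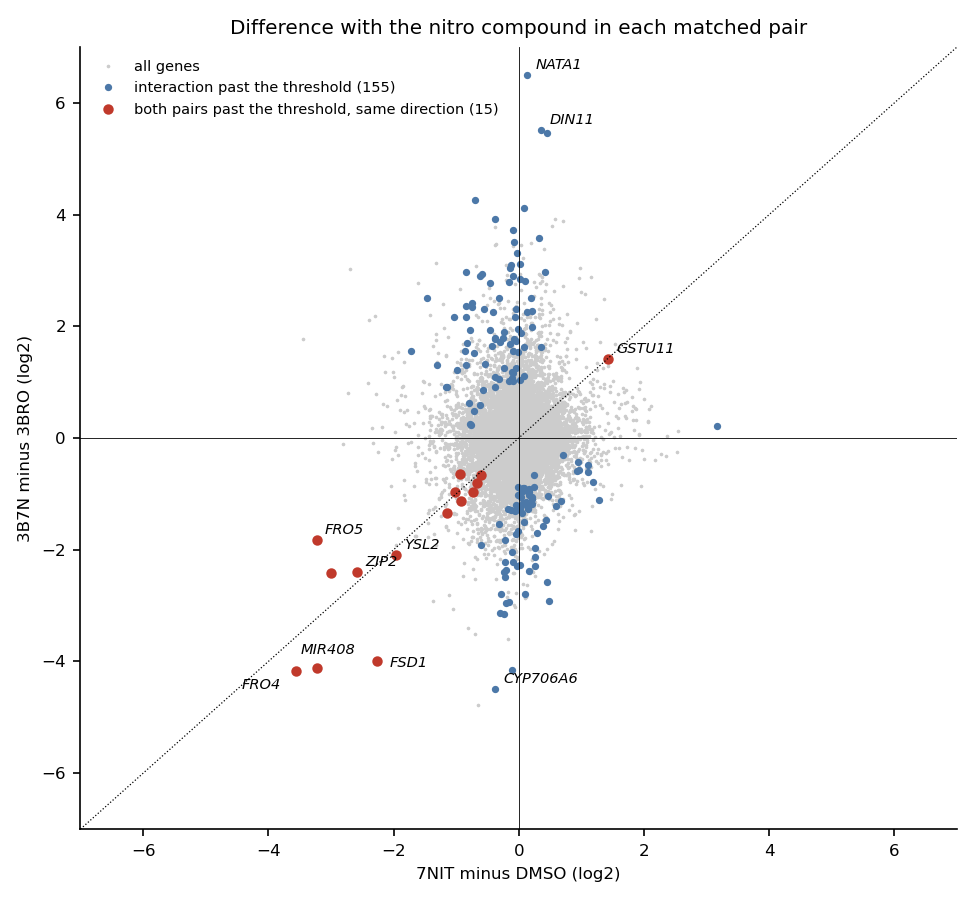
Each gene's log2 difference for 7NIT minus DMSO (x axis) and for 3B7N minus 3BRO (y axis), with the line of equal difference dotted. Of the 15 genes past the threshold in both pairs, 14 lie in the lower left and GSTU11 in the upper right, and the 155 genes with an interaction lie mostly along the vertical axis.

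The genes with the largest interactions changed with 3B7N and stayed near the DMSO level with 7NIT. In all 155 passed (0.658%), 82 above and 73 below 0 (0.348% and 0.31%), with 31 to 401 when 1 array was left out, lowest without 3BRO replicate 2 and highest without 3B7N replicate 2. NATA1, a jasmonate-induced acetyltransferase, had levels of -10.48, -10.54 and -9.72 with DMSO, -10.54, -10.75 and -9.51 with 3BRO, -10.42, -10.13 and -9.79 with 7NIT and -5.16, -2.71 and -3.44 with 3B7N. It was well above background with 3B7N alone, and rose at least 25.3-fold over 3BRO. Its fitted interaction was 6.37 (adjusted p = 0.0088). DIN11, a dark-inducible gene, had levels of -7.22, -7.59 and -8.06 with DMSO, -6.69, -7.45 and -7.47 with 3BRO, -6.74, -7.11 and -7.95 with 7NIT and -1.77, -1.51 and -1.79 with 3B7N. Only the 3B7N arrays stood apart, by 5.51 over 3BRO (adjusted p = 6.9e-05) against 0.36 for 7NIT over DMSO, and within slide 2 the difference was 5.82 (adjusted p = 0.04). ENODL1, of the early nodulin-like proteins, rose with 3B7N by a fitted 5.46 over 3BRO (interaction 5.01, adjusted p = 0.0035); its probe was well above background on 0 DMSO, 2 3BRO, 1 7NIT and 3 3B7N arrays, so these sizes rest on dim signals. CYP71A13, of camalexin synthesis, was also well above background with 3B7N alone, at least 8.59-fold over 3BRO, and had a fitted interaction of 4.96 (adjusted p = 0.016). The background filter kept the probes of NATA1, ENODL1 and CYP71A13 through the 3B7N arrays alone, where they were high.

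On the other side, the cytochrome P450 CYP706A6 had levels of -1.52, -1.39 and -1.32 with DMSO, -1.55, -2.14 and -2.33 with 3BRO, -1.38, -2.46 and -1.53 with 7NIT and -7.47, -5.75 and -6.31 with 3B7N. It fell by 4.50 on the log2 scale with 3B7N (adjusted p = 0.00071), while 7NIT minus DMSO was -0.38 (95% interval -1.28 to 0.53). The levels of the 3B7N arrays stood alone. AT4G34550, AT1G29720 and AT1G07450 had interactions of -4.04, -3.40 and -3.03 (adjusted p = 0.038, 0.022 and 0.033), with 3B7N minus 3BRO at -4.14, -2.92 and -2.58. In these genes a nitro main effect is the mean of a large and a small difference. FSD1 was the one named gene with both pairs past the threshold and an interaction. After normexp no interaction passed.

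Of the lists of genes that handle foreign compounds, 2 held rises alone among their calls, where 0.65% of all genes passed higher and 1.03% lower in the main effect. These 2 lists overlap: UGT74E2 and UGT73B5 are on both, and their rises are counted in each. Of 25 xenobiotic-response markers 4 rose and none fell in the main effect (median 0.41), of 53 UDP-glycosyltransferases 5 rose and none fell (median 0.12), of 46 glutathione transferases 1 rose and 1 fell (0.09), and of 183 cytochromes P450 4 rose and 6 fell (-0.12), against 0.01 for all genes. ABCG40, a transporter of abscisic acid, had levels of -5.47, -5.39 and -5.24 with DMSO, -5.59, -5.40 and -5.29 with 3BRO, -5.41, -5.50 and -5.34 with 7NIT and -3.17, -3.11 and -3.08 with 3B7N. The rise was in 3B7N alone, 2.30 (adjusted p = 2.9e-05) against -0.05 for 7NIT, with an interaction of 2.36 (adjusted p = 0.00083). CYP81D11, a P450 that many chemicals induce, was at 1.16 with 3B7N and -0.09 with 7NIT. UGT73B3 and UGT73B5, stress-induced glycosyltransferases, rose by 0.63 and 0.63 in the main effect, by 0.91 and 0.87 with 3B7N and without a call with 7NIT (0.36 and 0.39). UGT76E1 rose by 1.81 (adjusted p = 0.037). Leaving out 1 array at a time, ABCG40 passed in 12 of 12 fits, UGT73B3 in 11, UGT73B5 and UGT76E1 in 4 and CYP81D11 in 3.

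GSTU23 fell by 0.98 on the log2 scale (adjusted p = 0.01), the opposite direction to GSTU11. CYP71B36 fell by 1.71 (adjusted p = 0.0024), with -3.13 in the pair with bromo and -0.29 in the other. CYP96A13 rose with 7NIT by 1.69 (adjusted p = 0.025) and was at 0.83 with 3B7N (adjusted p = 0.26), but its probe was not well above background on the DMSO arrays and its 3BRO arrays ran from -9.41 on slide 1 to -8.0 on slide 2. Of the 12 genes named from these 4 lists, 2 passed under the slide block, GSTU11 and CYP71B36, the latter at -2.34 (adjusted p = 0.028). Of those that did not pass there, UGT76E1 was at 2.88, UGT74E2 at 0.90, UGT73B3 at 0.72 and GSTU23 at -1.09, each larger than without the block. CYP706A6 was at -2.19 against -2.44 and ABCG40 at 0.92 against 1.13. UGT73B5, CYP96A13, CYP71A13 and CYP81D11 were smaller, at 0.14, 0.13, 0.96 and 0.37 against 0.63, 1.26, 1.79 and 0.53.

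In the Calvin cycle 8 of 22 genes fell and none rose in the main effect, where 1.03% of all genes fell, with medians of -0.16 for 7NIT over DMSO, where no member passed, and -0.56 for 3B7N over 3BRO, where 10 fell against 3.07% of all genes. PRK, the phosphoribulokinase, had levels of 5.21, 4.98 and 5.14 with DMSO, 4.94, 4.67 and 4.60 with 3BRO, 5.06, 4.92 and 5.13 with 7NIT and 3.61, 3.94 and 3.54 with 3B7N. The 7NIT arrays overlapped the DMSO arrays, and the 3B7N arrays lay below all others. PRK was at -0.07 and -1.04 in the 2 pairs. SBPASE, the sedoheptulose bisphosphatase, was at -0.13 and -0.91, PGK1, the phosphoglycerate kinase, at -0.02 and -0.99, and AT3G60750 at -0.20 and -0.84; the second value passed for each and the first for none. The list's main-effect median of -0.44 was -0.14 after quantile normalization and -0.23 under the slide block, none of these 4 kept its call under that block, and leaving out 1 array at a time they passed in 2 to 4 of 12 fits.

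The next lists held few calls in the main effect, where 0.65% of all genes passed higher and 1.03% lower. Of 17 light-harvesting antenna genes LHCB4.3 fell (main effect -1.13, with -2.28 for 3B7N and 0.02 for 7NIT, and interaction adjusted p = 0.0051). No gene of 33 nuclear photosystem and electron transport genes passed in the main effect, and ferredoxin FED A came nearest at -0.44 (adjusted p = 0.055). FED A did pass, lower, in 2 of 24 alternative settings, with the mean of its passing probes and with a trended prior. In tetrapyrrole synthesis, 1 of 26 rose and 1 fell: PORA, a protochlorophyllide reductase of etiolated seedlings, at 4.12 with 3B7N and 0.08 with 7NIT, and PCB2, of chlorophyll synthesis, at -1.0 and 0.02. TT4, the chalcone synthase, was the 1 gene of 21 for flavonoids that fell (main effect -0.76, adjusted p = 0.042). Leaving out 1 array at a time, TT4 passed in 2 of 12 fits and PCB2 in 1, while LHCB4.3 and PORA passed in all 12.

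**Figure D5:**
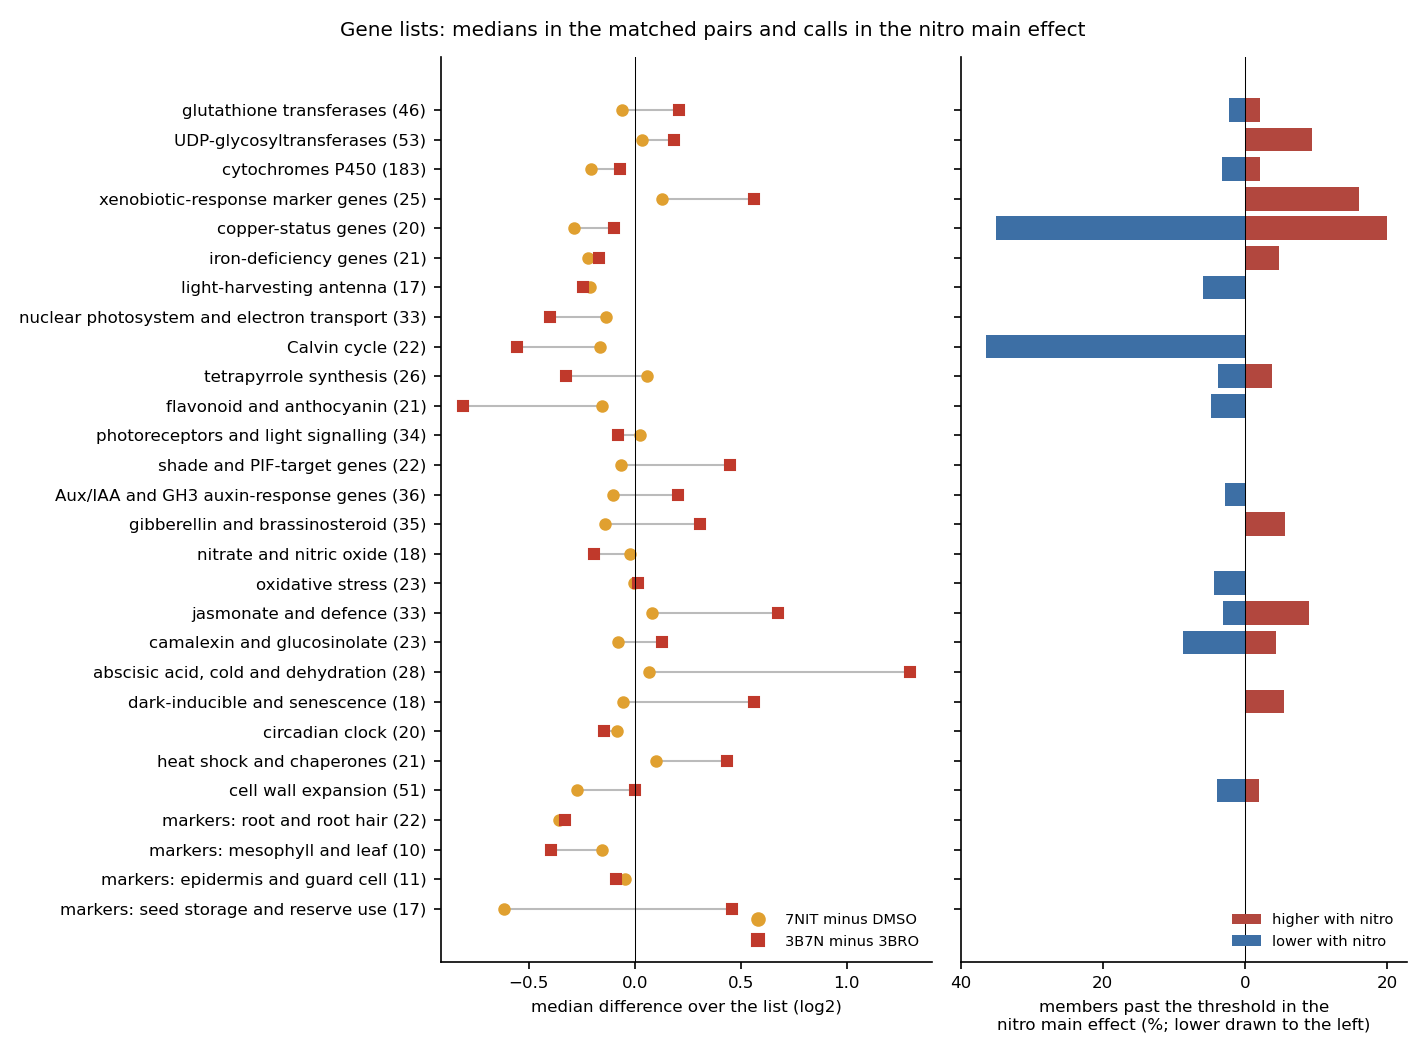
Left, the median log2 difference over each gene list (number of measured members in brackets) for the 2 matched pairs. Right, the percentage of members past the threshold in the nitro main effect, with higher to the right and lower to the left. The copper-status list has 11 of 20 members past it, and the Calvin cycle 8 of 22, all lower.

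No transcript of light perception or of nitrate and nitric oxide metabolism passed in the main effect, over 34 and 18 genes. The blue light receptors CRY1 and CRY2 were at -0.08 (95% interval -0.30 to 0.15) and 0.10 (-0.11 to 0.31). CRY1 levels were 3.47, 3.65 and 3.85 with DMSO, 3.39, 3.54 and 3.72 with 3BRO, 3.64, 3.48 and 3.55 with 7NIT and 3.65, 3.50 and 3.35 with 3B7N. All treatments overlapped. The red light receptor PHYB was at 0.01 (-0.23 to 0.25). CRY3, a cryptochrome of organelles, came nearest on that list at -0.49 (adjusted p = 0.097), with -1.03 in the pair with bromo (adjusted p = 0.023). HY5, a transcription factor that promotes light-grown development, was at 0.07 with 7NIT and -0.94 with 3B7N, an interaction of -1.01 that did not pass (adjusted p = 0.16). The nitrate reductases NIA1 and NIA2 were at 0.07 (-0.31 to 0.46) and -0.40 (-0.64 to -0.17), the nitrite reductase NIR1 at -0.14 (-0.41 to 0.13), and NOA1, once proposed to take part in nitric oxide production, at -0.22 (-0.58 to 0.14).

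The other lists held few calls in the nitro main effect, to be read against 0.65% higher and 1.03% lower over all genes. In jasmonate and defence 3 of 33 rose and 1 fell: VSP1 and VSP2, vegetative storage proteins, were at 1.64 and 1.57 with 3B7N and 0.08 and -0.09 with 7NIT, and FRK1, a receptor kinase of immune signalling, fell by 0.87 on the log2 scale. FRK1 levels were -7.26, -7.31 and -7.45 with DMSO, -5.48, -5.85 and -5.94 with 3BRO, -7.76, -7.86 and -7.69 with 7NIT and -7.02, -7.17 and -7.01 with 3B7N. The 3BRO arrays stood above all others, and DMSO lay between 7NIT and 3B7N. Of 23 camalexin and glucosinolate genes 1 rose and 2 fell, MAM1 of methionine-derived glucosinolates at -1.11 and the myrosinase TGG1 at -0.74; TGG1 was at -0.85 with 7NIT and -0.63 with 3B7N, close to the threshold without bromo (adjusted p = 0.058). With 1 array left out, VSP1 and FRK1 passed in all 12 fits, VSP2 in 8, and MAM1 and TGG1 in 2.

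Among iron-deficiency genes 1 of 21 rose, MYB10, a transcription factor, at 0.97 (adjusted p = 0.023). Of 35 gibberellin and brassinosteroid genes 2 rose, the DELLA repressor RGL3 (0.84) and GASA4 (0.54), of 36 auxin-response genes IAA31 fell (-0.84), and of 23 oxidative stress genes GPX7, a glutathione peroxidase, fell (-1.58). On the auxin list 4 members rose in 3B7N minus 3BRO (1.73% of all genes did), the Aux/IAA repressors IAA6, IAA5, IAA20 and IAA19, by 3.22, 2.22, 2.1 and 1.81, with 0.07, 0.06, 0.09 and -0.24 in 7NIT minus DMSO, and none passed in the main effect. Of 18 dark-inducible and senescence genes DIN11 was the 1 called. In cell wall expansion 1 of 51 rose, XTH19 (0.92), and 2 fell, XTH6 (-1.23) and XTH2. Shade and PIF targets, abscisic acid with cold and dehydration, clock and heat shock genes held no call in the main effect, over 22, 28, 20 and 21 genes. The abscisic acid list had the largest median of any list, 0.62 in the main effect, with medians of 0.07 for 7NIT and 1.30 for 3B7N, where 6 of 28 rose against 1.73% of all genes; RD20, a dehydration gene, came nearest in the main effect at 1.91 (adjusted p = 0.053). Leaving out 1 array at a time, GPX7 and DIN11 passed in all 12 fits, MYB10 and RGL3 in 7, GASA4 in 5, IAA31 in 4, XTH19 in 3 and XTH6 in 2. XTH17, of the shade list, was at 2.77 with 3B7N and -0.46 with 7NIT. The members nearest the threshold in the clock, heat shock, root, leaf, epidermis and seed lists were RVE1, BIP1, EXPA18, CA1, FMA and LEC1, with adjusted p-values from 0.054 to 0.18.

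In the authors' deposited table, 14 probes were listed for 7NIT against DMSO, 6 of them with a locus, and 4 of those 6 are probes of FSD1, YSL2 and ZIP2. The folds there, which carry no direction, were 4.78 and 3.52 for the 2 FSD1 probes, 3.91 for YSL2 and 6.02 for ZIP2 in the authors' deposited table. The other loci listed for 7NIT in the authors' deposited table were AT2G01010 at 4.69 and AT2G07716 at 5.05. The largest fold for 7NIT in the authors' deposited table, 18.6, was on a probe without a locus. For 3B7N against DMSO, the authors' deposited table listed 1779 probes, with folds of 18.8 and 12.1 for FSD1, 5.76 for YSL2, 6.55 for ZIP2, 2.39 for CCH and 2.30 for COPT2. That table listed no probe of FRO4, FRO5, MIR408, CCS, CSD1 or CSD2 in either comparison, and CCH and COPT2 for 3B7N alone. Nor did it list NATA1, DIN11, ENODL1 or CYP71A13. Both of its comparisons use the DMSO arrays, so they are not independent of each other. The table was made from the arrays analysed here and is no separate support.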

How the data were processed

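RNA of whole seedlings was hybridised to 1-colour Agilent arrays, 12 in all. The deposited spot intensities are Agilent Feature Extraction 10.7.3.1 processed signals per the file headers, already background-corrected there; those of 3BRO replicate 2 are deposited with 3 significant digits. The authors also deposited a table of absolute fold changes with corrected p-values against DMSO for 3B7N and 7NIT, whose direction, scale and test are not given in the sources used here.

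From the signals, log2 was taken and each array's 75th percentile over non-control probes subtracted. Control and outlier spots were dropped and repeated spots averaged per probe. A probe was kept if some treatment had it well above background on each of its 3 arrays (35747 of 43603), and each of 23557 loci was read by its brightest kept probe; 6602 loci had several. Symbols came from the RefSeq table of assembly TAIR10.1 by locus (23306 matched), for names alone. A cell mean per treatment was fitted with limma 3.58.1 in R 4.3.3, with 8 residual degrees of freedom, giving the nitro main effect, the 2 matched pairs, their difference (the interaction) and the bromo main effect, all two-sided; 23543 genes had a value for every contrast. A bound sets the brighter group against the dimmest probe that cleared background on each array. The fits were tested on simulated data with independent noise and the same nitro shift in both compounds. The simulation held no slide effect, brightness difference or interaction, so it does not bear on those. With 3 arrays a treatment, the number of arrays limits the precision.

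The genes and lists were chosen with earlier results of these data known. The named genes are the 12 higher and 12 lower of the non-overlapping set with the largest smaller difference of the 2 pairs, the 4 highest and 4 lowest interactions, up to 4 called members of each of 28 lists or else the one with the smallest p, and 8 genes of light perception and nitrogen. The remaining copper-status genes, CLE9, MLP34, AT2G47010, AT3G12955 and the auxin genes IAA5, IAA6, IAA19 and IAA20 were named after their values were seen. Of 580 list entries, 7 were dropped as ambiguous and 35 matched no locus.

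Alternatives were normexp background correction on the median spot and background signals (offset 50), quantile normalization, other filters and probe rules, slide, scan day or replicate number as a block, a trended prior, an additive model, adjustment within each pair, and each array left out. The comparison within slide 2 and slide as a random block were chosen after seeing the data. No sequence or motif was used here.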

Additional observations from a re-analysis of the deposited data

Results flagged for a closer look

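In 21 named genes the effect of nitro differed between the pair with bromo (3B7N minus 3BRO) and the pair without (7NIT minus DMSO) by limma's interaction test; values are the first difference minus the second, in log2. FSD1 was the only one of them past the threshold in both pairs, with a further fall of -1.74. In the others the pair with bromo carried the change. Among genes of jasmonate, camalexin and dark responses the differences were 6.37 for NATA1, 5.15 for DIN11, 4.96 for CYP71A13, 1.56 for VSP1 and 1.66 for VSP2, where NATA1 and CYP71A13 were not well above background outside 3B7N, so that their size depends on dim probes. ENODL1, also dim outside 3B7N, was at 5.01, the gibberellin repressor RGL3 at 1.79, and the wall enzymes XTH17 and XTH19 at 3.23 and 2.66. ABCG40 and CYP81D11, of the xenobiotic list, were at 2.36 and 1.25. Among plastid genes PORA was at 4.04, LHCB4.3 at -2.30, PCB2 at -1.02 and GPX7 at -2.75. The cytochromes P450 CYP706A6 and CYP71B36 were at -4.13 and -2.83, and AT4G34550, AT1G29720 and AT1G07450 at -4.04, -3.40 and -3.03. 7NIT and DMSO share no slide, so compound and slide cannot be told apart in that pair. Groups of 3 arrays were too small to look for an array that stands apart.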

How the results depend on the processing

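As reported, calls were 396 in the nitro main effect, 98 without bromo, 1130 with it, 15 in both pairs, 56 in the non-overlapping set, 155 interactions and 2484 for bromo; the cause of each change below was not tested unless the setting itself shows it. Normexp gave 33, 4, 276, 3, 10, 0 and 1036 in that order. Quantile normalization gave 156 without bromo, and moved the higher share from 38.6% to 57.7% of main-effect calls, from 55.1% to 81.4% without bromo, from 33.9% to 64.2% in the non-overlapping set, from 6.67% to 21.4% of genes in both pairs, and from 26.9% to 38.6% for bromo. Testing every probe left 223 in the main effect, 8 in both pairs and 92 interactions. Slide as a block gave 334 without bromo (24 higher and 310 lower, 8 of them among the 98), 114 in both pairs, 14 in the set, 96 interactions and 703 for bromo. Scan day gave 264, 70 and 20 for the first of these, and 1062 for bromo. In both of these fits the 2 pairs share arrays. The replicate block raised the main effect to 600; same-numbered arrays correlated at -0.16 to 0.44 in their deviations (median 0.14), so the numbers were not taken as pairs, though 9 of 12 arrays correlated best with their own number. A trended prior gave 257 interactions. The additive model gave 17 for nitro and 0 for bromo, since it takes the interaction as error. Adjusting within each pair gave 6 without bromo, 1770 with it and 2 in both; within slide 2, with 2 arrays a side, 1 was left. Leaving out each array gave 94 to 643 in the main effect, 43 to 98 without bromo, 378 to 1022 with it, 5 to 14 in both pairs, 27 to 191 in the set, 31 to 401 interactions and 1318 to 2589 for bromo. The highest main-effect and set counts came without 3BRO replicate 1, and the lowest without 7NIT replicate 2. Of 67 named genes called in the main effect none reversed in the settings that refit it, though 52 of them had a probe left under the strict background filter; 13 kept the call under normexp, 13 under slide, 20 under scan day, 61 under quantile normalization and 36 to 63 with an array left out. FSD1 and ZIP2 passed in all 24 settings run for them. The array median in place of the 75th percentile gave a brightness difference of 150 (exact permutation test, p = 0.0043). Low signal limits FRO5, MIR408, NATA1, CYP71A13, ENODL1, AT4G17990, AT5G02210, AT4G04650, SWEET8, AT1G35435 and CYP96A13, which at least 1 treatment left at background on all of its arrays, and AT1G71200. The background filter kept the probes of these genes through the treatments where they were high.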
